A study of Mus musculus with 42 samples.

Results

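The mitochondrial carriers of the Slc25 family were followed in the livers of 42 female APOE*3-Leiden mice. Members were all protein-coding genes with a symbol that starts with Slc25a, together with Ucp2, that had at least 10 counts in 10 or more of the 42 mice. This left 43 members out of the 48 family genes in a count table of 54446 genes. The rule counts mice over all groups and does not use a difference between them, but a gene near 0 in 1 group can pass through the others. Slc25a43, with a count of 0 in 8 of the 10 chow-fed mice, passed mainly through the WTD groups. The members nearest to the limit were Slc25a43 with 22 mice and Slc25a35 with 34 mice, and the nearest genes left out were Slc25a2 with 8 mice, Slc25a31 with 6 mice and Slc25a18 with 2 mice. Slc25a41 and Slc25a54 had no count in any mouse.

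Liver RNA was taken after 32 weeks and sequenced separately for every mouse. Every mouse carried the APOE*3-Leiden transgene, which encodes a variant of human apolipoprotein E and makes mice sensitive to dietary cholesterol. The Chow32w group held 10 mice on a maintenance chow. The WTD32w group held 16 mice on a Western-type diet (WTD) with 15% cocoa butter, 40.5% sucrose and 1% cholesterol by weight. The WTD&Atorvastatin32w group held 16 mice on the same diet with atorvastatin mixed in, an inhibitor of HMG-CoA reductase and thereby of cholesterol synthesis, at 3.0 mg/kg/day and from week 5 at 4.5 mg/kg/day. Both WTD groups entered at an age of 8 to 14 weeks, had 3 weeks of WTD before the start and received 0.05% sodium cholate in the diet from week 22 on. Chow-fed mice therefore differ from WTD-fed mice in the whole diet, cholate included, and these parts cannot be told apart. Mouse labels also differ, with an AZ series for all chow-fed mice and a Gen series for all mice of both WTD groups. The paper describes matching by age, body weight and plasma lipids for the WTD groups, and names no such matching for chow. Anything else that goes with the label series cannot be told apart from diet in comparisons with chow, and was not tested.

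Most Slc25 proteins sit in the inner mitochondrial membrane, which small charged molecules do not cross by themselves, and exchange or co-transport 1 kind of solute each. In liver they feed the urea cycle with ornithine and aspartate, export citrate for the synthesis of fatty acids and sterols, bring in acylcarnitines for oxidation and exchange ADP for ATP. They are made in the cytosol and inserted into the membrane by a dedicated import route.

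Promoter sequences were at hand for 34 of the 43 members, as 44 windows of 250 bases before and 50 bases after an annotated start (RefSeq, GRCm38.p6). The E-box CACGTG, the same letters on both strands, was in 7 of the 44 windows (15.9%), those of Slc25a1, Slc25a13, Slc25a14, Slc25a15, Slc25a33 and Slc25a36. It was in 7.15% of all 32851 windows in the table. These were not filtered for expression or gene type as the members were, and a gene can have more than 1 window. The GC box GGGCGG, or its reverse complement CCGCCC, was in 38 of the 44 windows (86.4%) and in 35.7% of all windows. The CCAAT box was in 22 windows of members (50.0%) and 37.4% of all, and the TATA box TATAAA in 1, that of Slc25a21 (2.27%), and 13.6% of all. In the windows shown no E-box overlaps a GC box. Such a match is a string of letters and does not show that a factor binds. Shown are 3 members with an E-box that were lower on WTD and higher with atorvastatin, and the 2 members that were higher on WTD. They were chosen with these results known, and a window with an E-box was taken first. The other members with an E-box, Slc25a14, Slc25a33 and Slc25a36, were called in no comparison. Slc25a16, Slc25a22 and Slc25a23 were also lower on WTD and higher with atorvastatin, and their windows held no E-box. Capitals mark E-boxes and GC boxes, and each window is written 5′ to 3′ on the strand of the gene.
Slc25a1: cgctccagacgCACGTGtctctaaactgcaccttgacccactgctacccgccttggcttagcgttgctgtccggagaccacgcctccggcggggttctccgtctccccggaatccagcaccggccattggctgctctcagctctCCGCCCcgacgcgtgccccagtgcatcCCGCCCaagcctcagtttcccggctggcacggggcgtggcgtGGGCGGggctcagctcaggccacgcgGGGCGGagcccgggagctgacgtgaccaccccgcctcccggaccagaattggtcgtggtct
Slc25a13: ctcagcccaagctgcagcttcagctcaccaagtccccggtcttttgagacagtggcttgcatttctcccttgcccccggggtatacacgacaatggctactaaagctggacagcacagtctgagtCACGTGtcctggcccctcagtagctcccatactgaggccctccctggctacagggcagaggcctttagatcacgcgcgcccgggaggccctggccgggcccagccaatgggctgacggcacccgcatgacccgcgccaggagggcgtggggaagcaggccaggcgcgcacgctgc
Slc25a15: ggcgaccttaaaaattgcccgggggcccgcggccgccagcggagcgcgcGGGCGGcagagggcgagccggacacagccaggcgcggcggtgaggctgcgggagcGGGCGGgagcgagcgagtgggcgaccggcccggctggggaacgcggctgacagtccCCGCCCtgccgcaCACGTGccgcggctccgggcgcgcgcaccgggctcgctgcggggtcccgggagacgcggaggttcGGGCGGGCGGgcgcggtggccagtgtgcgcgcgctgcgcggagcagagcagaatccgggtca
Slc25a24: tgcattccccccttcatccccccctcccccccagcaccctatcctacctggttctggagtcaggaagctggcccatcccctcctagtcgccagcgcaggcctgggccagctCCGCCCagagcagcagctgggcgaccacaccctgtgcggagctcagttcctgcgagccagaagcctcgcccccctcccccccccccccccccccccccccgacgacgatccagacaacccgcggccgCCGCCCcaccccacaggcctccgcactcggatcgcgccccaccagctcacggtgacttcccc
Ucp2: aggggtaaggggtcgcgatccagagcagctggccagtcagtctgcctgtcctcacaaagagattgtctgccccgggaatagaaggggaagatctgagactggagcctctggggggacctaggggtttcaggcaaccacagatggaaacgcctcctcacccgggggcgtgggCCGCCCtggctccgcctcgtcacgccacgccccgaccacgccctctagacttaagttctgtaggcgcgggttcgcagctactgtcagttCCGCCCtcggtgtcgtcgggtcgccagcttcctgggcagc

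The Slc25a1 window is chr16:17928170-17928469 on the minus strand, with 1 E-box whose first base lies at -239 from the start and 4 GC boxes. The Slc25a13 window, chr6:6217124-6217423 on the minus strand, has 1 E-box at -125 and 0 GC boxes. The Slc25a15 window, chr8:22398228-22398527 on the minus strand and 1 of 2 listed for this gene, has 1 E-box at -77 and 5 GC boxes, of which the last overlap each other. The windows of Slc25a24, chr3:109122899-109123198, and of Ucp2, chr7:100493108-100493407, both on the plus strand, have 0 E-boxes and 2 GC boxes each.

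Libraries held between 15661381 and 36224054 counted read pairs. Levels are given as CPM, counts scaled to the TMM-adjusted size of each library. Genes were called at a Benjamini-Hochberg adjusted p under 0.01 in edgeR's quasi-likelihood test over 15574 genes. Libraries stood apart in 3 ways. Chow replicate 1 held skeletal muscle RNA, with Ckm (muscle creatine kinase) at 436 CPM and Acta1 (skeletal actin) at 820 CPM, while the other 41 mice were at most at 0.938 and 0.843 CPM. Then, 8 libraries, 3 of them on chow, 4 on WTD and 1 with atorvastatin, lacked any count for over 20% of the genes at 1 to 2 CPM, with 59.7% in chow replicate 2. Last, WTD replicate 15 was the highest WTD-fed mouse for 12 of the 43 members. Slc25a4, Slc25a14, Slc25a24, Slc25a26 and Slc25a40 each had a count of 0 in chow replicate 2 and in no other mouse.

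All 8 hepatocyte markers were measured, and their summed level was 110400 to 159500 CPM in chow-fed mice (median 124500), 51890 to 109000 CPM in WTD-fed mice (median 67030) and 60410 to 130200 CPM in atorvastatin-treated mice (median 106300). All 8 were lower in WTD-fed than in chow-fed mice, and 5 were higher in atorvastatin-treated than in WTD-fed mice. Markers of other cells moved as well. Of the 8 tested macrophage markers 7 were higher on WTD than on chow, with a summed median of 368 CPM on chow, 2202 CPM on WTD and 1391 CPM with atorvastatin, and the marker Itgam listed at 0 in every mouse. Among stellate and fibroblast markers 6 of 8 were higher on WTD, among cholangiocyte markers 5 of 5 and among erythroid markers 4 of 6. Of the 6 endothelial markers 1 was higher and 2 were lower, 0 of the 7 lymphocyte markers were called, and both tested neutrophil markers were higher. For comparison, 17.5% of all tested genes were higher and 16.0% lower on WTD than on chow. In bulk liver, fewer cells of a type and less RNA per cell cannot be told apart, and the part of these markers in the results on carriers was not tested.

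Levels between carriers were compared per length, as CPM per kilobase of exon. In chow-fed mice Slc25a5, the main ADP/ATP carrier of liver, was highest, with a median of 223 CPM per kilobase (198 to 241). It was followed by Slc25a47, a carrier found mainly in liver, with 167 (102 to 293), Slc25a39, needed for the entry of glutathione, with 155 (140.3 to 169), and the citrate carrier Slc25a1 with 106 (86.9 to 145). The ranges of these 4 neighbours overlap from 1 to the next, while Slc25a1 did not overlap with Slc25a10, which came next at 65.5 (50.3 to 78.3). From there on each carrier overlapped with the next one down to Slc25a43, with a median of 0. The first 4 carriers kept their order in the medians of all 3 groups. Ucp2 stood at place 25 by its chow median of 6.70 CPM per kilobase, at place 12 on WTD with 19.5 and at place 17 with atorvastatin with 14.9. With the longest transcript as length, 9 of the first 10 carriers were the same.

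**Figure D1:**
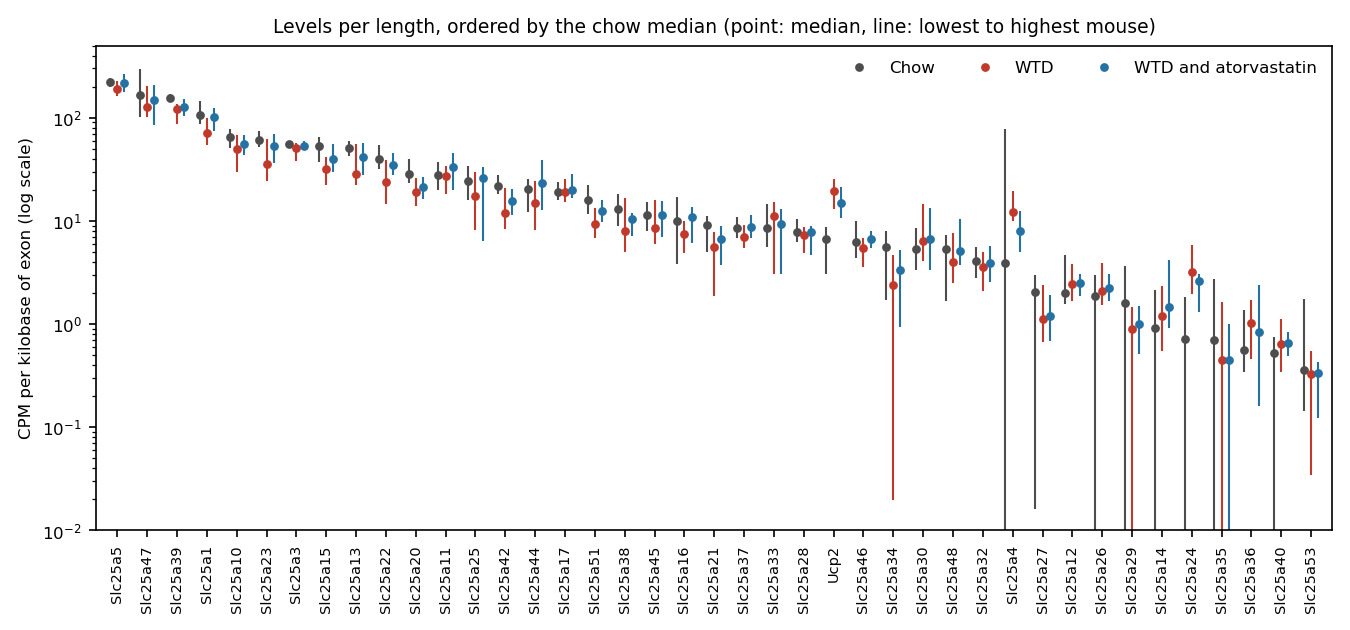
Level of 41 of the 43 members in CPM per kilobase of exon (log axis), ordered by the median of chow-fed mice, with points for the median and lines from the lowest to the highest mouse of each group. Slc25a43, with a chow median of 0, is among those left out, and lines that reach the bottom end at 0. The highest 4, Slc25a5, Slc25a47, Slc25a39 and Slc25a1, are the same in each group. The medians of several members, Ucp2, Slc25a4 and Slc25a24 among them, are higher in both WTD groups than on chow.

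Summed over all 43 members, chow-fed mice had 4026 to 4778 CPM (median 4392), WTD-fed mice 2657 to 4183 CPM (median 3316) and atorvastatin-treated mice 3286 to 4386 CPM (median 4006). The lowest sums were those of WTD-fed mice, and the ranges overlap. The TMM factors differed between groups, at 0.844 to 0.921 on chow, 0.915 to 1.22 on WTD and 0.890 to 1.11 with atorvastatin. A higher factor lowers the CPM of a library, so the sums depend on this scaling, and sums without it were not taken. The 5 carriers highest per length held 40.3% of the sum on chow, 40.5% on WTD and 38.9% with atorvastatin.

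WTD-fed mice were compared with chow-fed mice for differences in the carriers that go with the diet, or with the label series that differs along with it. Of the 43 members 19 were called, 2 higher and 17 lower, where 33.5% of all tested genes were called, 17.5% higher and 16.0% lower. The median log2 fold change of the members was -0.35, against 0.03 over all tested genes, and 32 of the 43 values were negative. The 2 higher ones were Ucp2 and Slc25a24. In this comparison the counts over the 11 other fits ran from 17 to 26, with 2 to 5 higher.

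Atorvastatin-treated and WTD-fed mice were compared for the effect of the drug on top of the diet. There, 9 of the 43 members were called, all 9 higher, where 7.10% of all tested genes were called, 4.84% higher and 2.26% lower. The median of the members was 0.15, against 0.00 over all genes, and before adjustment p was under 0.05 for 20 members. The 9 were Slc25a1, Slc25a13, Slc25a15, Slc25a16, Slc25a22, Slc25a23, Slc25a37, Slc25a44 and Slc25a51. Other fits also called members lower. This was 1 of 9 under RLE scaling, with the share of missed weak genes as covariate, and without chow replicate 1 and the 8 libraries. It was 1 of 12 without WTD replicate 15, 2 of 11 in DESeq2 and with only 2 groups, and 3 of 19 in limma-voom. No member was called lower under upper quartile scaling, with no filter, or without the 8 libraries or chow replicate 1 alone. Against chow, atorvastatin-treated mice had 7 members called, 2 higher and 5 lower, where 25.0% of all genes were called, 14.2% higher and 10.7% lower. Their median was -0.06, against 0.04 over all genes. These comparisons share groups, so a WTD-fed mouse that is high or low moves WTD against chow and atorvastatin against WTD in opposite directions.

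**Figure D2:**
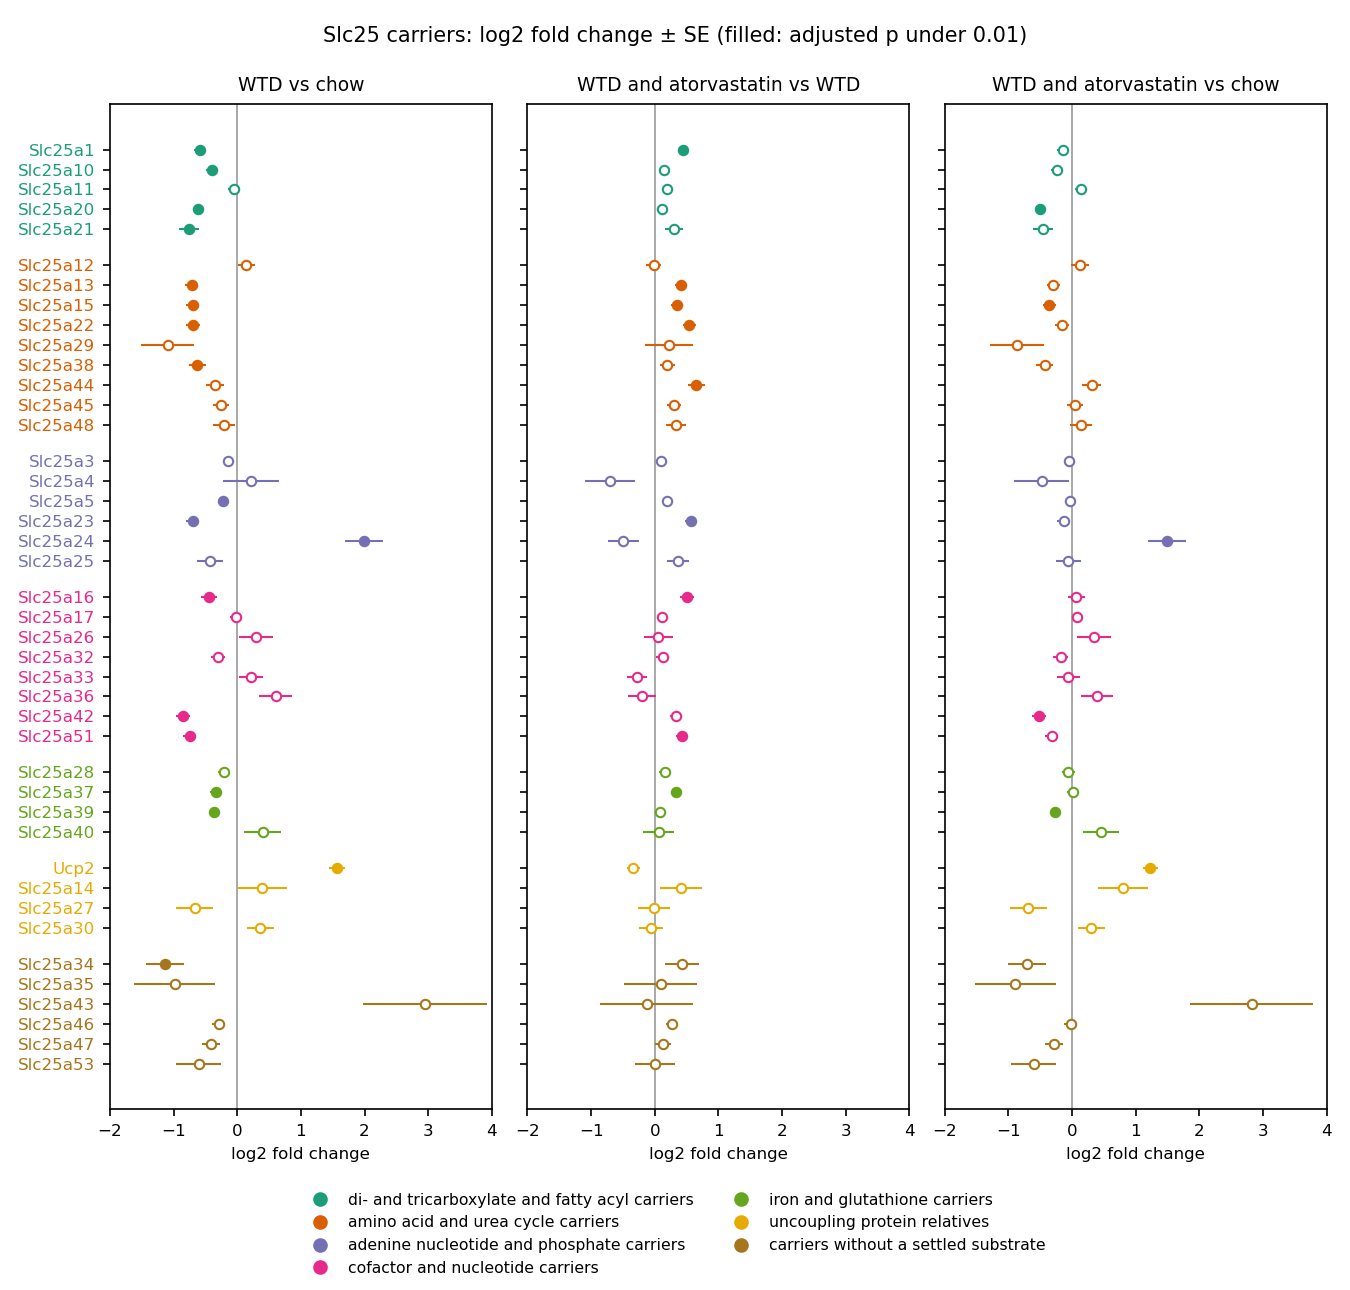
The log2 fold change of 42 of the 43 members (x axis, bars: SE) in the 3 comparisons, with genes grouped and coloured by role and filled points for an adjusted p under 0.01. On WTD against chow 16 filled points lie left of 0 and 2 right of it, Ucp2 and Slc25a24, and in the middle panel all 9 lie right of 0. The values of Slc25a43 rest on a chow group with a median of 0 and give no size of change.

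Among the 5 carriers of di- and tricarboxylates and fatty acyl groups, 4 were lower on WTD than on chow, against 16.0% of all tested genes. The median log2 fold change of the 5 was -0.58. Slc25a1 exports citrate, the source of cytosolic acetyl-CoA. Its level was 188 to 315 CPM on chow (median 230.0), 118 to 215 CPM on WTD (median 154) and 162 to 270.2 CPM with atorvastatin (median 219). The WTD-fed mice were the low group, with 13 of 16 below the lowest chow-fed mouse, and both WTD groups overlapped with chow. Slc25a1 fell by 0.58 on the log2 scale on WTD (SE 0.0918, adjusted p = 5.01e-07, quasi-likelihood test of edgeR, Benjamini-Hochberg), and rose with atorvastatin against WTD by 0.44 (SE 0.0817, adjusted p = 1.44e-04). Against chow it was at -0.14 with atorvastatin (adjusted p = 0.246).

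Slc25a20, the carnitine-acylcarnitine carrier that brings long-chain acyl groups to oxidation, was at 112 to 191 CPM on chow (median 137), 66.9 to 125 CPM on WTD (median 92.7) and 78.9 to 128 CPM with atorvastatin (median 103). Here 15 of 16 WTD-fed mice and 11 of 16 atorvastatin-treated mice lay below every chow-fed mouse. It fell on WTD (log2 fold change -0.61, adjusted p = 7.81e-08) and was lower with atorvastatin than on chow as well (-0.50, adjusted p = 8.19e-06), while atorvastatin and WTD differed by 0.11 (SE 0.0787, adjusted p = 0.434). The dicarboxylate carrier Slc25a10 had medians of 226 CPM on chow, 173 CPM on WTD and 194 CPM with atorvastatin, and 8 of 16 WTD-fed mice lay below the chow range of 174 to 271 CPM. It fell on WTD (-0.39, adjusted p = 3.91e-04), with 0.15 between atorvastatin and WTD (adjusted p = 0.256). Slc25a21, the oxodicarboxylate carrier, fell on WTD by 0.76 on the log2 scale (adjusted p = 5.59e-05). The oxoglutarate carrier Slc25a11, which with Slc25a13 forms part of the malate-aspartate shuttle, had medians of 59.0, 57.7 and 69.7 CPM on chow, WTD and atorvastatin, and was called in no comparison (-0.06 for WTD against chow, adjusted p = 0.681).

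**Figure D3:**
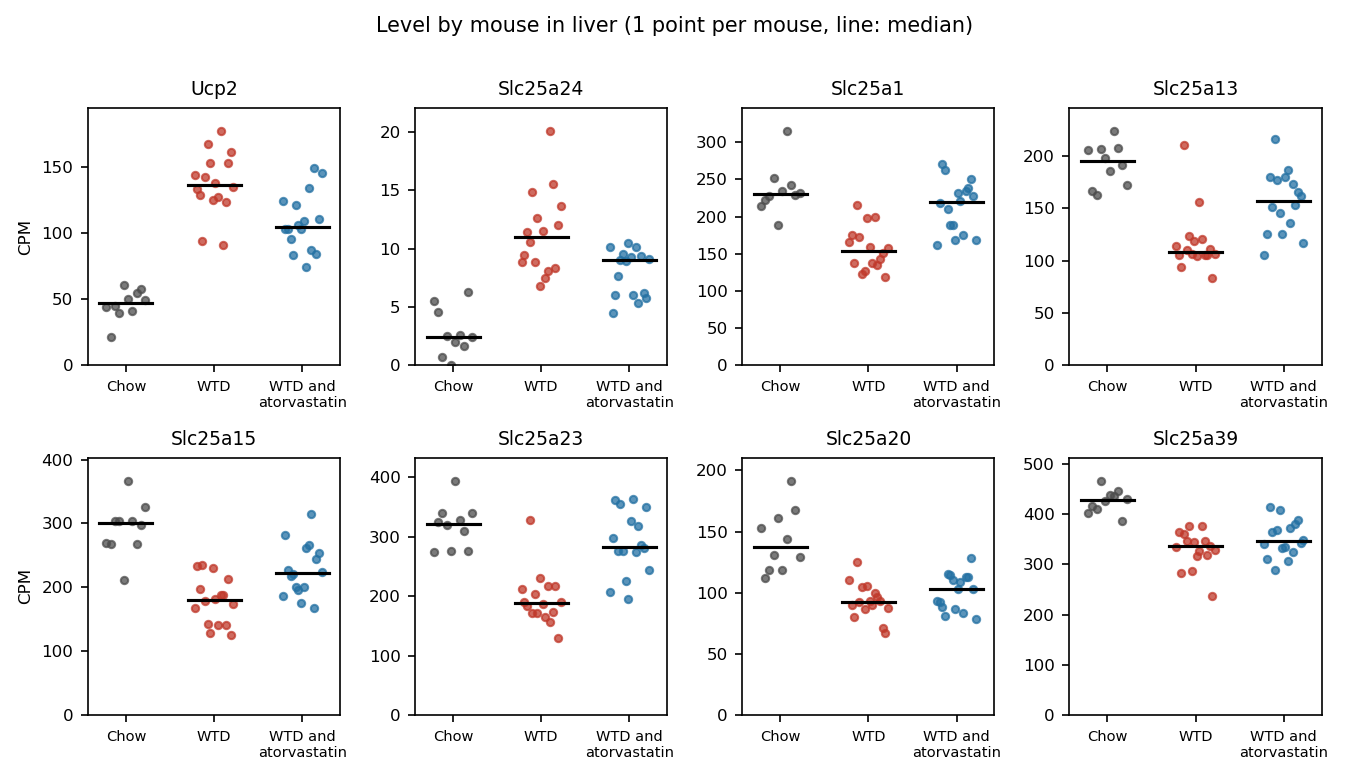
CPM of 8 members in each mouse (1 point per mouse, y axes from 0, black line: median of the group). Ucp2 and Slc25a24 are high in both WTD groups, Slc25a1, Slc25a13, Slc25a15 and Slc25a23 are low on WTD with the atorvastatin median between WTD and chow, and Slc25a20 and Slc25a39 are low in both WTD groups.

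Of the 9 amino acid and urea cycle carriers, 4 fell in WTD-fed mice against chow, and 4 rose with atorvastatin against WTD. The shares of all tested genes were 16.0% and 4.84%. Slc25a13, the aspartate-glutamate carrier of liver (citrin), supplies the urea cycle with aspartate. It was at 162 to 223 CPM on chow (median 195), 83.7 to 210.3 CPM on WTD (median 108) and 106 to 216 CPM with atorvastatin (median 157). All WTD-fed mice except replicate 15 lay below the chow range. The log2 fold change on WTD was -0.71 (SE 0.102, adjusted p = 6.87e-08) and that of atorvastatin against WTD 0.41 (SE 0.0912, adjusted p = 0.00109). With atorvastatin against chow it was -0.30 (adjusted p = 0.0194).

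Slc25a15, the ornithine carrier of the urea cycle, was at 211 to 366 CPM on chow (median 300.1), 126 to 235 CPM on WTD (median 180.1) and 168 to 315 CPM with atorvastatin (median 223). The atorvastatin-treated mice took a middle place and overlapped with both other groups. It was the only member called in all 3 comparisons, lower on WTD than on chow (-0.70, adjusted p = 5.28e-08), higher with atorvastatin than on WTD (0.34, adjusted p = 0.00550) and lower with atorvastatin than on chow (-0.36, adjusted p = 0.00355). The second of these calls was lost without the 8 libraries that lacked weak genes (0.29, adjusted p = 0.0406), also with chow replicate 1 left out as well (0.29, adjusted p = 0.0416), with the share of missed weak genes as covariate (0.31, adjusted p = 0.0184) and under RLE scaling (0.30, adjusted p = 0.0123), and 7 of 11 other fits made it.

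Slc25a22, a glutamate carrier, fell on WTD (-0.70, adjusted p = 6.59e-07) and rose with atorvastatin (0.54, adjusted p = 1.26e-04), with medians of 240.3, 143 and 210 CPM in the order chow, WTD and atorvastatin. For each of the 16 atorvastatin-treated mice it was above the WTD median. Slc25a44, a carrier of branched-chain amino acids, had medians of 73.6, 53.4 and 82.6 CPM. It was the member with the largest rise on atorvastatin (0.66, SE 0.128, adjusted p = 3.26e-04), while on WTD against chow it was at -0.35 (adjusted p = 0.0462). Slc25a38, a glycine carrier used for heme synthesis, fell on WTD (-0.63, adjusted p = 1.24e-04).

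Slc25a12, the aspartate-glutamate carrier of muscle and brain, was at 34.3 CPM in chow replicate 1 and at 11.6 to 19.8 CPM in the other 9 chow-fed mice (median 13.8). It was at 12.4 to 27.8 CPM on WTD (median 18.0) and 13.8 to 22.7 CPM with atorvastatin (median 18.2), and no comparison called it. WTD and chow differed by 0.14 (adjusted p = 0.422), by 0.32 without chow replicate 1 (adjusted p = 0.0297) and by -0.08 without the 8 libraries that lacked weak genes (adjusted p = 0.662). Atorvastatin and chow differed by 0.13 (adjusted p = 0.519), and by 0.30 without chow replicate 1 (adjusted p = 0.0481). The direction between atorvastatin and WTD turned without the 8 libraries. The other members of this group, Slc25a29, Slc25a45 and Slc25a48, were called in no comparison and had chow medians of 4.16, 31.8 and 17.8 CPM.

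Among the 6 adenine nucleotide and phosphate carriers, 1 was higher and 2 were lower on WTD than on chow. The shares of all tested genes were 17.5% and 16.0%. Slc25a5, which exchanges ADP for ATP, was at 325 to 396 CPM on chow (median 367), 269 to 376 CPM on WTD (median 313) and 294 to 439 CPM with atorvastatin (median 358). Of the WTD-fed mice 11 of 16 were below the chow range. The change on WTD was small (-0.22, SE 0.0645, adjusted p = 0.00382) and was no longer called without the 8 libraries that lacked weak genes (-0.21, adjusted p = 0.0197), also with chow replicate 1 left out as well (adjusted p = 0.0290), or under RLE scaling (-0.18, adjusted p = 0.0137). Slc25a3, the phosphate carrier, had medians of 308, 282 and 292 CPM, and WTD and chow differed by -0.15 (SE 0.0540, adjusted p = 0.0218).

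Slc25a23 and Slc25a24 are calcium-dependent carriers of ATP-magnesium and phosphate that set the nucleotide pool of the matrix. Slc25a23 was at 274 to 393 CPM on chow (median 322), 129.8 to 329 CPM on WTD (median 188) and 194 to 364 CPM with atorvastatin (median 283). All WTD-fed mice except replicate 15 lay below the chow range, and the atorvastatin-treated mice overlapped with both groups. Slc25a23 fell on WTD (-0.70, SE 0.101, adjusted p = 6.53e-08) and rose with atorvastatin against WTD (0.57, SE 0.0897, adjusted p = 2.66e-05).

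Slc25a24 was at 0 to 6.25 CPM on chow (median 2.44), 6.78 to 20.1 CPM on WTD (median 11.0) and 4.48 to 10.5 CPM with atorvastatin (median 8.99). Each WTD-fed mouse was above every chow-fed mouse, and so were 10 of 16 atorvastatin-treated mice. The log2 fold change of WTD against chow was 1.99 (SE 0.304, adjusted p = 2.63e-07), and with atorvastatin the level was 2.82-fold that on chow (adjusted p = 6.03e-05). Atorvastatin and WTD differed by -0.50 (SE 0.244, adjusted p = 0.196). Over the 11 other fits the rise on WTD ran from 1.72 to 2.20 and was called in all 11. Slc25a25, the third carrier of this kind, varied widely, with 50.7 to 262 CPM in atorvastatin-treated mice, and was called in no comparison (-0.43 on WTD against chow, adjusted p = 0.0821).

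Slc25a4 is the ADP/ATP carrier of heart and skeletal muscle. In chow replicate 1, the library with muscle genes, it was at 185 CPM, in chow replicate 2 at 0, and in the 9 chow-fed mice other than replicate 1 at most at 17.0 CPM (median 9.13). WTD-fed mice had 23.4 to 46.3 CPM (median 28.9) and atorvastatin-treated mice 11.7 to 29.5 CPM (median 18.9). Apart from chow replicate 1, each WTD-fed mouse was above every chow-fed mouse. With all mice the log2 fold change of WTD against chow was 0.22 (SE 0.442, adjusted p = 0.720), and without chow replicate 1 it was 1.80 (adjusted p = 3.61e-07). Atorvastatin against chow went from -0.48 (adjusted p = 0.429) to 1.10 (adjusted p = 8.04e-04). For atorvastatin against WTD the value was -0.70 in both fits, with an adjusted p of 0.269 with all mice and 0.0187 without chow replicate 1, and it was -0.72 with an adjusted p of 2.39e-04 when the 8 libraries were left out too. Leaving out chow replicate 1 was decided after the data were seen. DESeq2 gave 1.66 for WTD against chow (adjusted p = 5.14e-11) and limma-voom with sample quality weights 1.45 (adjusted p = 2.13e-05). No mouse was left out of these 2 fits. By default, however, DESeq2 replaces counts that it flags as outliers, and sample quality weights can lower the part of a single library. Whether this changed the part of chow replicate 1 was not checked.

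**Figure D4:**
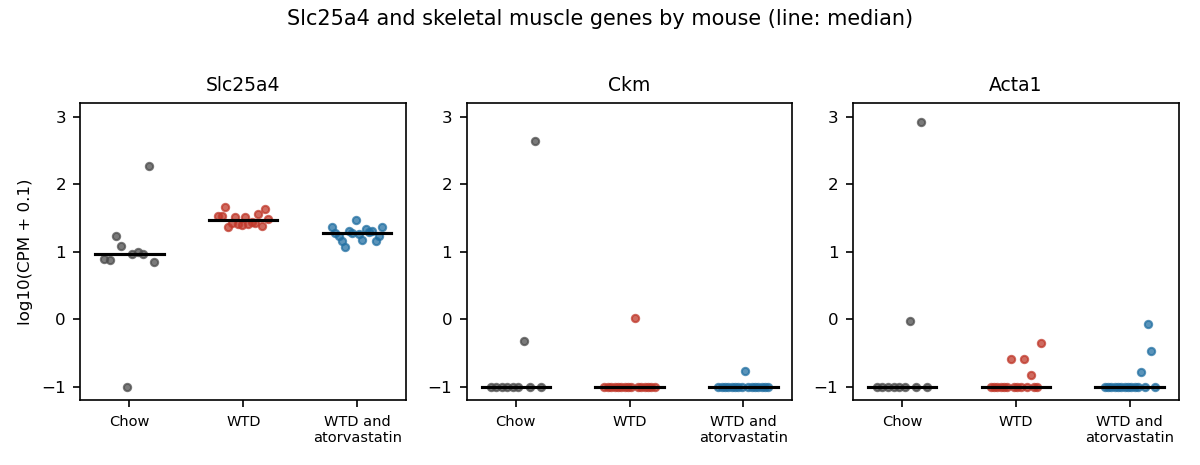
Level of Slc25a4 and of the skeletal muscle genes Ckm and Acta1 in each mouse, as log10 of CPM plus 0.1, with a line for the median of each group. The same chow-fed mouse, replicate 1, is highest in all 3 panels, while the other 41 mice are at or near 0 CPM for Ckm and Acta1, and without it the chow-fed mice lie below the WTD-fed mice for Slc25a4.

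Of the 9 carriers of cofactors and nucleotides, 4 were lower on WTD than on chow, against 16.0% of all tested genes. Among these 4, 2 are linked to coenzyme A. Slc25a42, which imports coenzyme A, was at 109 to 167 CPM on chow (median 129), 50.4 to 124 CPM on WTD (median 70.8) and 68.0 to 121 CPM with atorvastatin (median 92.7). The WTD-fed mice were lowest, with 15 of 16 below the chow range. Slc25a42 had the smallest p among the members that fell on WTD (-0.86, SE 0.109, adjusted p = 4.22e-09), and with atorvastatin it was also lower than on chow (-0.53, adjusted p = 1.26e-04). Atorvastatin against WTD gave 0.33 (adjusted p = 0.0151), which was called without WTD replicate 15 (0.40, adjusted p = 8.30e-04).

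Slc25a51, the NAD carrier, was at 64.3 to 122 CPM on chow (median 88.6), 37.9 to 72.7 CPM on WTD (median 51.3) and 53.4 to 87.4 CPM with atorvastatin (median 68.4). It fell on WTD (-0.75, adjusted p = 1.29e-08) and rose with atorvastatin against WTD (0.43, adjusted p = 6.04e-04), where all 16 treated mice were above the WTD median. All 16 were also below the chow median. With atorvastatin against chow it was at -0.32 (adjusted p = 0.0103), a difference that 5 of 11 other fits called. Slc25a16, linked to coenzyme A as well, had chow values of 18.2 to 81.3 CPM that enclosed all WTD-fed mice, at 23.45 to 47.98 CPM. The lowest chow value was that of replicate 2, 1 of the 8 libraries that lacked weak genes. Without these libraries the chow values were 41.2 to 81.3 CPM, above the WTD median of 35.4 CPM. Its calls were -0.44 on WTD (adjusted p = 0.00454) and 0.51 with atorvastatin (adjusted p = 0.00162). Slc25a17, Slc25a26, Slc25a32, Slc25a33 and Slc25a36 were called in no comparison.

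Of the 4 iron and glutathione carriers 2 were lower on WTD than on chow, against 16.0% of all tested genes. Slc25a39 was at 387 to 466 CPM on chow (median 428), 237 to 377 CPM on WTD (median 336) and 289 to 414 CPM with atorvastatin (median 346). The WTD-fed and chow-fed mice did not overlap, and 13 of 16 atorvastatin-treated mice were below the chow range. Slc25a39 fell on WTD (-0.36, SE 0.0647, adjusted p = 5.31e-06) and was lower with atorvastatin than on chow (-0.27, SE 0.0648, adjusted p = 6.01e-04), with 0.09 between atorvastatin and WTD (adjusted p = 0.359). Slc25a37, mitoferrin 1, is the iron importer best known from red cell precursors, and 4 of 6 erythroid markers were higher on WTD than on chow, 3 of 6 with atorvastatin than on chow and 0 were called between atorvastatin and WTD. Their summed level was 190.4 to 333 CPM on chow (median 219), 215.5 to 925 CPM on WTD (median 390.1) and 228 to 592 CPM with atorvastatin (median 451.5), with overlap between the groups, and their part in the values of Slc25a37 was not tested. Slc25a37 itself fell on WTD (-0.33, adjusted p = 0.00214) and rose with atorvastatin (0.34, adjusted p = 0.00236), with medians of 51.8, 42.0 and 52.7 CPM. Its relative Slc25a28, mitoferrin 2, and Slc25a40, the relative of Slc25a39, were called in no comparison.

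Ucp2 was the only called member among the 4 uncoupling protein relatives, where 33.5% of all tested genes were called for WTD against chow. It encodes a carrier that exchanges four-carbon metabolites and takes its name from the uncoupling protein of brown fat, and in healthy liver it is known mainly from macrophages. Ucp2 was at 21.3 to 60.5 CPM on chow (median 46.8), 91.0 to 177 CPM on WTD (median 136) and 74.5 to 149 CPM with atorvastatin (median 104). Every mouse of both WTD groups was above every chow-fed mouse. The log2 fold change was 1.57 on WTD (SE 0.124, adjusted p = 4.39e-15), a 2.97-fold level, and 1.23 with atorvastatin (SE 0.122, adjusted p = 1.42e-11), a 2.35-fold level, both against chow. Between atorvastatin and WTD it was -0.34 (SE 0.102, adjusted p = 0.0186), and 6 of the 11 other fits called this difference. The macrophage markers whose summed level is given above moved in the same order of groups, with 1061 to 2037 CPM in atorvastatin-treated and 1373 to 2831 CPM in WTD-fed mice against 276 to 436 CPM on chow. Of the 8 tested macrophage markers 5 were lower and 1 was higher with atorvastatin than on WTD. Summed medians of stellate and fibroblast markers took the same order, with 477 CPM on chow, 1186 with atorvastatin and 2114 on WTD. Cholangiocyte markers did too (118, 326 and 577 CPM), as did neutrophil, lymphocyte and adipose and muscle markers at low levels. Hepatocyte, endothelial and erythroid markers did not. The part of any of these markers in the values of Ucp2 was not tested. Slc25a14, Slc25a27 and Slc25a30, carriers known mainly from brain and kidney, had chow medians of 2.19, 8.09 and 24.2 CPM and were called in no comparison.

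Of the 6 carriers without a settled substrate only Slc25a34 was called, lower on WTD than on chow (-1.14, SE 0.299, adjusted p = 0.00153). Its medians were 14.8 CPM on chow and 6.34 CPM on WTD. Over all tested genes the share lower on WTD was 16.0%. Slc25a47, high in liver per length, spread widely within each group, from 305 to 874 CPM on chow (median 498), 303 to 605 CPM on WTD (median 380.4) and 254 to 615 CPM with atorvastatin (median 441). Of the WTD-fed mice 15 of 16 were below the chow median but only 1 was below the chow range, and the difference between WTD and chow was -0.41 (SE 0.143, adjusted p = 0.0179). Slc25a43 had a count of 0 in 14 mice, 8 of them on chow, and its adjusted p for WTD against chow was 0.0112. As it passed the rule for members mainly through the WTD groups, this comparison is not independent of the rule. Slc25a35, Slc25a46 and Slc25a53 were called in no comparison.

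Carriers with the same or a related substrate were then compared within each mouse, as the log2 ratio of their CPM with 0.5 CPM added to each. A permutation test with 100000 permutations, adjusted over 39 tests of 13 pairs, called 12 differences between groups. The ratio of Slc25a23 to Slc25a24 was 6.90 on chow, 4.09 on WTD and 5.11 with atorvastatin as group means. It differed in all 3 comparisons, by -2.81 for WTD against chow (adjusted p = 1.56e-04), by 1.03 for atorvastatin against WTD (adjusted p = 1.56e-04) and by -1.78 for atorvastatin against chow (adjusted p = 2.60e-04). Without the 8 libraries that lacked weak genes these were -2.35, 0.92 and -1.43, and all 3 were still called. The ratio of Slc25a24 to Slc25a25 differed from chow by 2.58 on WTD and by 1.77 with atorvastatin (adjusted p = 1.56e-04 for each).

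The ratio of Slc25a12 to Slc25a13 exceeded its chow level on WTD by 0.92 (adjusted p = 4.88e-04) and was lower with atorvastatin than on WTD, a difference of -0.42 (adjusted p = 0.00748). Without the 8 libraries the second difference was -0.35 and not called (adjusted p = 0.0488). Between atorvastatin and chow it differed by 0.50 (adjusted p = 0.0145), which was called without chow replicate 1 (0.62, adjusted p = 9.00e-04). The ratio of Slc25a4 to Slc25a5 differed by 1.85 between WTD and chow (adjusted p = 0.00234), by 2.32 without chow replicate 1 (adjusted p = 1.11e-04) and by 1.34 without the 8 libraries, which was not called (adjusted p = 0.0467). Between atorvastatin and WTD it differed by -0.88 (adjusted p = 1.56e-04), and this was called without the 8 libraries too. Between atorvastatin and chow the difference was 0.97 (adjusted p = 0.150), and 1.44 without chow replicate 1, which was called (adjusted p = 3.47e-04). For Slc25a39 to Slc25a40 the ratio differed from chow by -0.89 on WTD (adjusted p = 0.00567) and by -0.90 with atorvastatin (adjusted p = 3.34e-04). Chow replicate 2, 1 of the 8 libraries, had a count of 0 for Slc25a40, and without the 8 libraries the first difference was -0.71 and not called (adjusted p = 0.0167). Slc25a16 to Slc25a42 was called for atorvastatin against chow only, at 0.65 (adjusted p = 0.00234), and without the 8 libraries this was 0.38 and not called (adjusted p = 0.0381). The other 7 pairs were called in no comparison. Among these, Slc25a10 to Slc25a11 was called without chow replicate 1, at -0.44 for WTD against chow (adjusted p = 7.09e-04) and -0.46 for atorvastatin against chow (adjusted p = 8.45e-04). The smallest p these permutations can give is 2e-05.

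**Figure D5:**
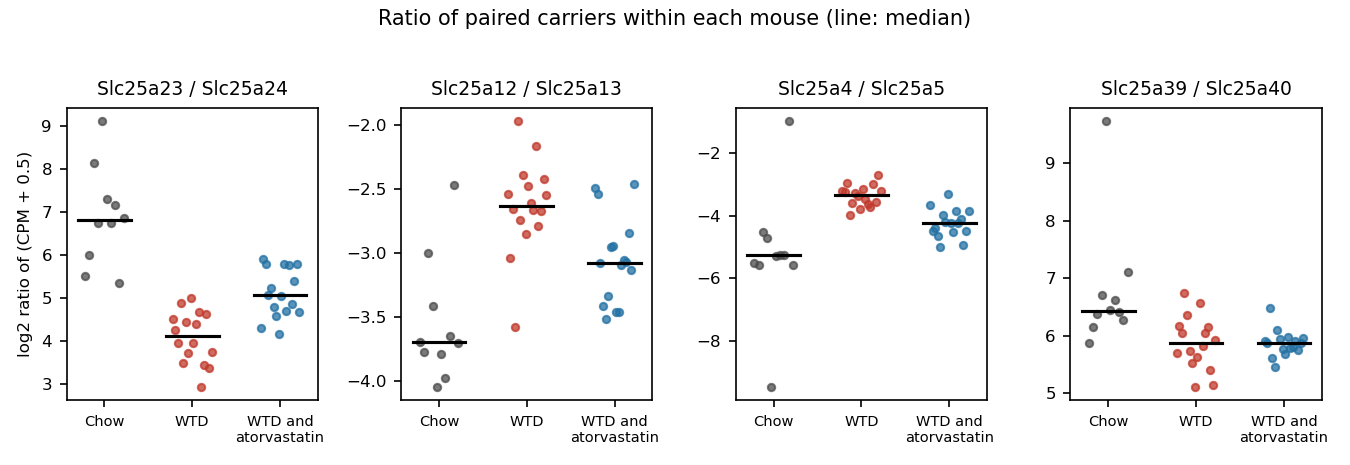
The log2 ratio of CPM plus 0.5 for 4 pairs of carriers, with 1 point per mouse and a line for the median of each group. The ratio of Slc25a23 to Slc25a24 is lowest on WTD and highest on chow, and in the last 2 panels single chow-fed mice stand far from their group, replicate 1 at the top for Slc25a4 to Slc25a5 and replicate 2 at the bottom there and at the top for Slc25a39 to Slc25a40.

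Genes around the carriers were counted for comparison. Of all tested genes, 17.5% were called higher and 16.0% lower on WTD than on chow. The shares were 4.84% and 2.26% for atorvastatin against WTD, and 14.2% and 10.7% for atorvastatin against chow. Of 18 tested transporters of the mitochondrial membranes outside the family, 2 were higher and 8 lower on WTD than on chow, 3 higher and 0 lower with atorvastatin than on WTD, and 1 higher and 5 lower with atorvastatin than on chow. Mpc2, a subunit of the pyruvate carrier, fell on WTD (-0.87, adjusted p = 1.13e-10), as did the serine transporter Sfxn1 (-0.80, adjusted p = 1.25e-08), which rose with atorvastatin (0.74, adjusted p = 2.62e-06). Sfxn3 rose on WTD from a low level (1.63, adjusted p = 1.85e-06), at medians of 3.42 and 8.91 CPM. Of 12 genes of the import route of carriers, 1 was higher and 2 were lower on WTD, among them the chaperone Timm13 (-0.45, adjusted p = 6.23e-05), 0 were called between atorvastatin and WTD, and 3 were lower with atorvastatin than on chow. Of 24 enzymes that use or supply what the carriers move, 1 was higher and 13 were lower on WTD than on chow. Otc, the ornithine transcarbamylase that works on the matrix side of Slc25a15, fell on WTD (-0.86, adjusted p = 1.44e-10), at medians of 536 and 287 CPM, and Pck2, the mitochondrial form of phosphoenolpyruvate carboxykinase, was the 1 that rose (0.95, adjusted p = 0.00216). With atorvastatin against WTD 10 enzymes were higher, among them the glutaminase Gls2 (0.86, adjusted p = 9.86e-05) and Arg1, the arginase that yields ornithine (0.62, adjusted p = 6.03e-05), and 1 was lower, Gpx4, a glutathione peroxidase (-0.51, adjusted p = 6.24e-05). With atorvastatin against chow 4 enzymes were higher and 6 lower, and Acly, which splits the citrate exported by Slc25a1, was among the higher ones (1.59, adjusted p = 3.98e-04), at medians of 250 CPM on chow, 264 CPM on WTD and 642 CPM with atorvastatin.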

How the data were processed

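Liver RNA of 42 mice was sequenced as strand-specific poly(A) libraries, 1 per mouse. By the submitters' processing notes and the study's methods, alignment to GRCm38 used STAR 2.5 and gene counting HTSeq 0.6.1p1. The authors deposited raw counts, without normalization. The summary lines for read pairs in no gene (2.28% on average), in more than 1 gene (5.95%) or aligned more than once (4.68%) were left out. Symbols and lengths came from GENCODE vM21, which held 54409 of the 54446 gene identifiers.

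All 42 mice entered 1 fit with 3 groups and no covariate: filterByExpr (minimum count 10, minimum total count 15), TMM scaling and edgeR 4.0.16 in R 4.3.3 with robust quasi-likelihood, on all genes. P values were adjusted over the 15574 tested genes by the method of Benjamini and Hochberg, and calls were made at 0.01, the threshold of the study. The alternatives were DESeq2 1.42.0, RLE and upper quartile scaling, limma-voom (limma 3.58.1) with weights for sample quality, no filter, only the 2 groups compared, the 8 libraries that lacked weak genes left out, their share of such genes as covariate, WTD replicate 15 left out and a threshold of 0.05. Chow replicate 1 was left out as well, with or without the 8 libraries, which was decided after the data were seen. The fit was tested on simulated data. Ratios of 13 pairs were compared with a 2-sided permutation test in SciPy 1.17.1.

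Values by mouse are given for the 6 called members with the smallest p in each direction and comparison and for a fixed list of 16, 21 members in all. Of the members that this takes, 1 is not reported here. From each list of other genes the 2 with the smallest p in each direction are taken. Members, roles, lists and pairs were chosen with earlier results of these data known. Adipose and muscle markers, of which 1 of 6 could be tested, served to find other tissue in a library. The SEs come from the fit over all 42 mice and hold the spread between mice.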

Additional observations from a re-analysis of the deposited data

Results flagged for a closer look

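The chow group, with 10 mice, was checked for single mice far from the others in the 21 members with values by mouse. A mouse counts as far when its gap to the next mouse, divided by the range of the group, exceeds Dixon's 95% critical value, which chance gives in about 1 in 20 groups. This was met by 3 members, each by its highest mouse. Slc25a4 was at 185 CPM in chow replicate 1 (gap over range 0.908) and Slc25a12 at 34.3 CPM in the same mouse (0.636). This is the library with Ckm at 436 CPM and Acta1 at 820 CPM, and the part of these muscle genes in both values was not tested. The third was Slc25a1, at 315 CPM in chow replicate 9 (0.494). Groups of 16 mice were not checked in this way.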

How the results depend on the processing

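Of 756 values for the 21 members under the alternatives, 690 kept direction and call, 42 became called, 7 lost their call and 17 turned direction. Among the turned values, for Slc25a4 atorvastatin against chow was 0.91 in DESeq2, 0.72 in limma-voom and 1.10 without chow replicate 1. It was 1.08 when the 8 libraries lacking weak genes were left out too, while it stayed at -0.48 without WTD replicate 15. Over the 11 other fits it ran from -0.82 to 1.10. For Slc25a4 WTD against chow was -0.10 without the 8 libraries. Slc25a12 gave -0.08 there for WTD against chow, and 0.10 for atorvastatin against WTD without the 8 libraries, 0.10 without chow replicate 1 too and 0.004 with their share as covariate. For atorvastatin against chow, Slc25a5 was at 0.004 with the covariate, and Slc25a37 at 0.006 in the fit reported, -0.021 under upper quartile scaling, -0.017 with only 2 groups, -0.005 without the 8 libraries, -0.033 with the covariate, -0.061 without chow replicate 1 and the 8 libraries and -0.045 in limma-voom, and from -0.028 without chow replicate 1 to 0.006 without WTD replicate 15. Called members for atorvastatin against WTD were 9, and 19 in limma-voom (16 higher), 11 in DESeq2 and 11 with only 2 groups (9 higher each). For atorvastatin against chow they were 7, with 12 with only 2 groups, 11 without the 8 libraries, 11 without chow replicate 1 too, 14 in limma-voom, 11 in DESeq2 and 13 at a threshold of 0.05. The cause was not tested. Without WTD replicate 15 or chow replicate 1 the counts were 20 and 21 for WTD against chow, 12 and 9 for atorvastatin against WTD and 8 and 7 for atorvastatin against chow. Pairs called were 12, 12 with 2 CPM added, 8 without the 8 libraries and 16 without chow replicate 1. No paired analysis was possible because the replicate numbers name single mice in accession order and tie no mice of different groups together. Weak members, with a few CPM, can be at 0 in libraries that lack weak genes.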
